A study of Mus musculus with 11 samples.

Results

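The interleukin 6 family is described here through 10 genes, 5 for ligands (Il6, Il11, Lif, Osm and Clcf1) and 5 for receptor chains (Il6st, Il6ra, Il11ra1, Lifr and Osmr). They were taken by symbol, with no measured value in the rule, although the family was picked with earlier results of these data known, from the 22600 genes of a merged table of RNA-seq read counts, and all 10 were found there. RNA came from the whole distal tibia, with bone, marrow and any attached tissue ground together, and 1 library was made per mouse from 4 Control and 7 BMAd-DTA mice. Replicate numbers follow accession order and serve only as names.

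BMAd-DTA mice were built to lose their bone marrow adipocytes (BMAds). They carried Osterix-FLPo, a Flp recombinase expressed in the osteoblast lineage, together with FAC, an Adipoq-Cre allele that Flp must turn before it can act, and ROSA-DTA, in which Cre removes a STOP cassette so that diphtheria toxin A is made and the cell dies. Per the study's methods the controls also carried Osterix-FLPo and FAC, a background known to lower circulating adiponectin, and their genotype label is BMAd-WT. All 11 mice were C57BL6/SJL, 24 weeks old and fed ad libitum. Recombination in this model was incomplete and also reached a small part of the Adipoq-expressing marrow stromal cells.

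Cytokines of this family signal through gp130, the shared receptor chain encoded by Il6st. Interleukin 6 and interleukin 11 first bind their own alpha chains (Il6ra, Il11ra1), whereas leukemia inhibitory factor (Lif) and cardiotrophin-like cytokine factor 1 (Clcf1) use gp130 paired with Lifr, and mouse oncostatin M (Osm) mainly uses gp130 paired with Osmr. The bound receptors activate JAK kinases and STAT3, and in bone these cytokines are known to act on osteoblasts, osteoclasts and blood-forming cells.

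Lifr was the member whose level separated the 2 groups, and promoter sequence is shown for it and for Lif, its ligand. Lifr has more than 1 RefSeq start, as do Il11 and Il11ra1. RefSeq windows on GRCm38.p6 matched 8 of the 10 members with 11 starts in all; Osm and Clcf1 had none. Each line gives the 250 bases before a start, 5′ to 3′ on the gene's strand, with CG dinucleotides in capitals.
Lifr first start, chr15:7129322-7129571, plus strand: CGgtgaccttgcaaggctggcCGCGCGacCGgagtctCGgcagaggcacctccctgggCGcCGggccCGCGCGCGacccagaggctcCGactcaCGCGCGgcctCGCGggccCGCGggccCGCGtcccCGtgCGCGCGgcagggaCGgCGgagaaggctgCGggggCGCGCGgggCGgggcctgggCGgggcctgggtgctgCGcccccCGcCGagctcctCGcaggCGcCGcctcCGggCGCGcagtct
Lifr second start, chr15:7140292-7140541, plus strand: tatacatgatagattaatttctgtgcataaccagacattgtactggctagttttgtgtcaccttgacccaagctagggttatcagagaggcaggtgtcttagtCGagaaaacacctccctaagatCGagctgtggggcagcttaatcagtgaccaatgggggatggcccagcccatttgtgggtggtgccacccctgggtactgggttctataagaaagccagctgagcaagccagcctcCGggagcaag
Lif start, chr11:4257318-4257567, plus strand: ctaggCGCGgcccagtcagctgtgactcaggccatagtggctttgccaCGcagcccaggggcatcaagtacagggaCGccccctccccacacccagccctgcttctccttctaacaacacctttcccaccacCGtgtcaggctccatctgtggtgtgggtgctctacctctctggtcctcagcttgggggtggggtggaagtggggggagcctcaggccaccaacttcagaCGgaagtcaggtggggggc

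The first Lifr window held 43 CG dinucleotides and was 82.4% G and C, and 0.713% of 32841 promoter windows of that length held as many. The second held 3 at 50.8% G and C, a number that 71.0% of windows reached, and Lif held 6, the median of all windows. Counts were made per gene, so they do not say which start was in use. The Lifr starts, at chr15:7129572 and chr15:7140542, lie inside the annotated gene, which begins at chr15:7090614. No window covered that upstream end. The 50 bases after the second Lifr start were not found whole in any Lifr transcript of GENCODE M21, unlike those of every other family window. The STAT motif TTCNNNGAA, which reads the same on both strands, was in none of the 11 family windows and in 7.02% of all windows. The RUNX motif TGTGGT, searched on both strands, was in 2 of the 11 windows (14.0% of all windows), at 102 bases before the Lif start and 89 bases before the second Il11ra1 start, and in neither Lifr window. The AP-1 motif TGANTCA, again the same on both strands, was in 3 of the 11 (6.75% of all windows), for Il6, Il11 and Lif. The TATA motif TATAAA, searched on both strands, was in none of the 11 and in 12.4% of all windows. These matches are letters only, and they do not overlap each other.

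Library totals were 16969529 to 18637663 counts in Control and 17128711 to 18432805 in BMAd-DTA, and levels are given as counts per 1000000 counts of a library (CPM) after trimmed mean (TMM) scaling. Over all genes, edgeR's quasi-likelihood test of BMAd-DTA against Control covered 16496 genes and called 13 of them at a Benjamini-Hochberg adjusted p under 0.05, 12 higher and 1 lower in BMAd-DTA. The split was 433 higher and 412 lower by DESeq2, and 30 higher and 59 lower by edgeR without Control replicate 4. The 13 adipocyte markers all had lower fitted values in BMAd-DTA, with their median log2 fold change at -0.99. There was 1 call by edgeR and 3 by DESeq2, beside 0.0788% and 5.42% of all genes. Their summed levels ran from 667 to 1643 CPM against 1421 to 2324 CPM in Control, and none was at 0 in any library. Skeletal muscle markers ran from 18.4 to 1401 CPM in Control and from 19.6 to 1095 CPM in BMAd-DTA. All 12 had lower fitted values in BMAd-DTA, with their median log2 fold change at -0.93 and no call by edgeR or DESeq2 (none at an unadjusted p under 0.05). Muscle sums also varied within each group, and 1 Control and 3 BMAd-DTA libraries were under 100 CPM, a limit set after the sums were seen. In RNA from a whole bone, fewer cells of a type and less RNA per cell cannot be told apart.

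None of the 9 members tested passed the adjusted threshold in edgeR, where 0.0788% of all genes tested passed it. At an unadjusted p under 0.05 there were 3 members, Lifr, Clcf1 and Lif, all higher in BMAd-DTA, beside 16.4% of all genes. DESeq2 called 2 members, Lifr and Clcf1, both higher, beside 5.42% of the 15583 genes to which it gave an adjusted p. The members' median log2 fold change was 0.09, that of all genes 0.00, and 6 of the 9 were above 0, as were 50.4% of all genes. With the muscle marker score as a covariate in edgeR, the log2 fold changes of Lifr, Clcf1 and Lif were 0.62, 0.52 and 0.78, with adjusted p-values of 0.164, 0.232 and 0.348. The 3 members with unadjusted calls are 1 receptor chain and 2 of the ligands that signal through it. Ctf1, another ligand of that chain but not a member, had a log2 fold change of -0.93 (edgeR adjusted p 0.344). Its mean level was 0.81 CPM in Control and 0.42 CPM in BMAd-DTA.

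Among the receptor chains, Lifr, which binds LIF and pairs with gp130, had the clearest difference. The gene is ENSMUSG00000054263.12, chr15:7090614-7197489 on the plus strand (mm10). Its level was 79.7, 121, 118 and 99.0 CPM in Control replicates 1 to 4. In BMAd-DTA the lowest library had 138, the median 155 and the highest 239 CPM. All 7 BMAd-DTA libraries lay above all 4 Control libraries, as they did for 1.78% of all genes tested. The means were 104 ± 19.2 (SD, n = 4) and 169 ± 39.5 CPM (SD, n = 7), and the log2 fold change was 0.70 (SE 0.17, 95% interval 0.33 to 1.06), or 1.62-fold. The adjusted p was 0.0798 in edgeR and 0.00271 in DESeq2. A two-sided exact permutation test on log2(CPM + 0.5) gave p = 0.00303, the smallest that the 330 possible draws allow and not adjusted for the 10 members so tested. Lifr was therefore past the adjusted threshold by DESeq2 and not by edgeR. The permutation p is unadjusted and rests on the same separation of the groups, so it is not a further pass of that threshold.

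Osteoblast and osteocyte markers moved with Lifr. Their summed level was 3075 to 13196 CPM in Control and 15617 to 36483 CPM in BMAd-DTA without overlap. Col1a1 and Col1a2 made up most of that sum, at means of 4720.5 and 3869.5 CPM in Control and 12016 and 9254.7 CPM in BMAd-DTA. Of the 12 markers, 5 had all BMAd-DTA libraries above all Control libraries, beside 1.78% of all genes tested. All 12 had higher fitted values (median log2 fold change 1.06), and none was at 0 in any library. By edgeR 1 was called, beside 0.0788% of all genes, and by DESeq2 9, beside 5.42%. Control replicate 1 had the lowest marker sum and the lowest Lifr, and BMAd-DTA replicates 2 and 3 had the highest of both. After group means were removed, the correlation of log2 Lifr with the mean log2 level of these markers was r = 0.88 over the 11 libraries, a description in which both measures share library and scaling. In the same way Lifr had r = -0.74 with the macrophage and monocyte markers and -0.68 with the endothelial markers. The part of bone cell content in the Lifr difference was not tested. The genes most like Lifr in those deviations, of 14890 compared, were Cacnb3 (r = 0.95), Ccn4 (r = 0.95), a matricellular protein of the WNT-induced signaling family, and Lingo3 (r = 0.94). They had log2 fold changes of 0.96, 0.98 and 1.66, with edgeR adjusted p-values from 0.0675 to 0.0720. In the libraries with little muscle RNA, Lifr was 99.0 CPM in the lone Control and 144 to 239 CPM in the 3 BMAd-DTA libraries, and in the others it was 79.7 to 121 against 138 to 157 CPM. As the Lifr groups do not overlap, this split could not have brought them together and is given as values only.

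**Figure D1:**
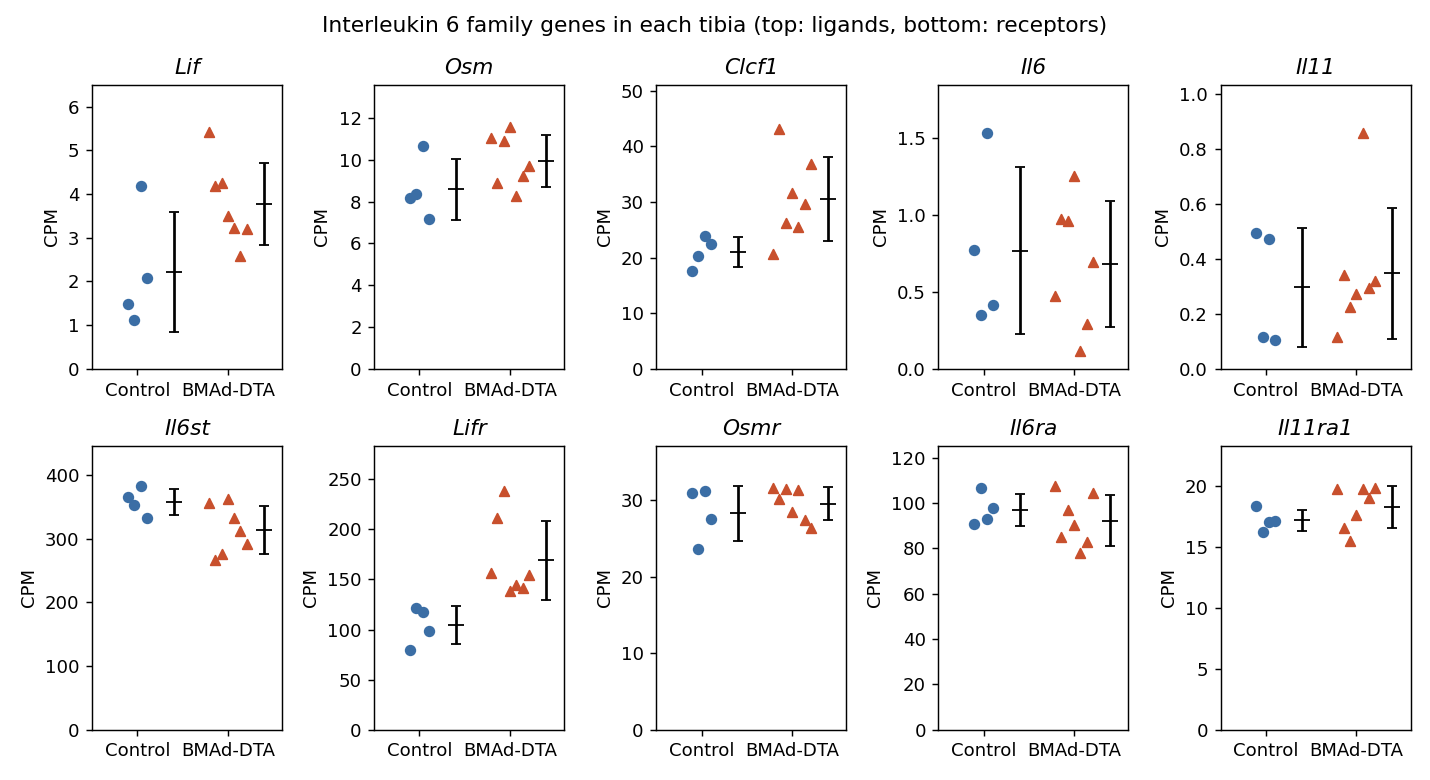
Level in CPM (linear axes from 0) of the 5 ligand genes (top) and the 5 receptor genes (bottom) in each of 4 Control (circles) and 7 BMAd-DTA (triangles) libraries, with the mean and SD beside each group. The Lifr groups do not overlap, whereas those of every other member do.

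Il6st, which encodes gp130, is ENSMUSG00000021756.12 at chr13:112464070-112510086 on the plus strand. It had 365, 352, 382 and 333 CPM in the Control libraries. BMAd-DTA libraries ran from 266 through a median of 312 to 362 CPM. Of these, 5 of 7 lay below every Control library, and BMAd-DTA replicates 1 and 4 lay among the Control values. No member had all BMAd-DTA libraries below all Control libraries, as 1.04% of all genes tested did. The log2 fold change was -0.19 (SE 0.09, 95% interval -0.38 to 0.00), with an edgeR adjusted p of 0.315 and an exact permutation p of 0.0758. With group means removed, Il6st deviated together with the adipocyte (r = 0.84), endothelial (r = 0.79) and marrow stromal markers (r = 0.71) over 11 libraries. Endothelial marker sums were 823 to 965 CPM in Control and 677 to 969 CPM in BMAd-DTA, and stromal sums were 3359 to 5043 against 3387 to 5378 CPM. The part of these cells in the Il6st values was not tested.

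Lifr and Il6st encode the 2 chains of the LIF receptor. Lifr CPM over Il6st CPM was 0.218, 0.344, 0.308 and 0.297 in the Control libraries. It was 0.382 at the lowest, 0.453 at the median and 0.863 at the highest in BMAd-DTA. No BMAd-DTA ratio reached down to the Control range. The ratio was formed after the values of both genes had been seen, and no test is given for it.

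**Figure D2:**
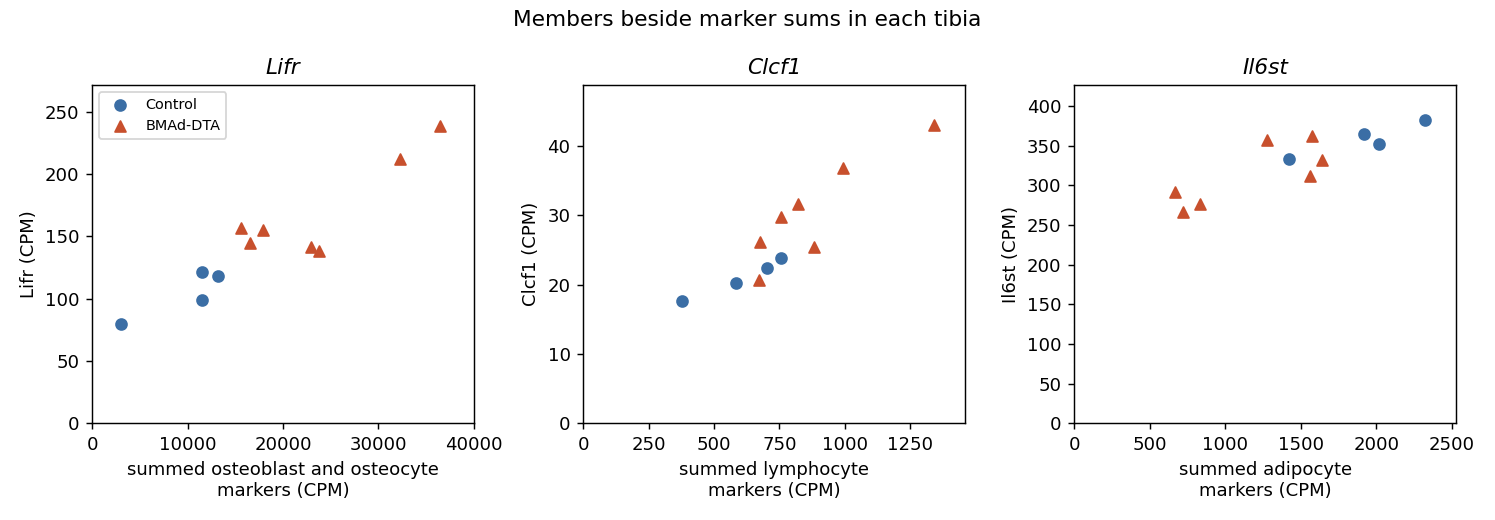
Level of Lifr, Clcf1 and Il6st (CPM, vertical axes) against the summed level of osteoblast and osteocyte, lymphocyte and adipocyte markers (CPM, horizontal axes), 1 point per library for 4 Control (circles) and 7 BMAd-DTA (triangles). After group means are removed, r on the log2 scale is 0.88, 0.78 and 0.84, and the 2 groups do not overlap in either Lifr or its marker sum. Col1a1 and Col1a2 make up most of that sum.

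For the other 3 receptor chains the groups overlapped, and the 95% interval of each log2 fold change included 0. Osmr, the oncostatin M receptor chain (ENSMUSG00000022146.12, chr15:6813577-6874969, minus strand), was at 30.9, 23.6, 31.2 and 27.5 CPM in Control and at 26.3 to 31.6 CPM, median 30.2, in BMAd-DTA. Its log2 fold change was 0.06 (SE 0.09, 95% interval -0.13 to 0.26, edgeR adjusted p 0.791), and the sign turned to -0.02 without Control replicate 2. Osmr lies next to Lifr on chromosome 15, 215644 bases away on the opposite strand with 1 non-coding gene between, and the Lifr to Osmr ratio was 3.78 ± 1.06 (SD, n = 4) in Control and 5.72 ± 1.16 (SD, n = 7) in BMAd-DTA, with overlap.

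Il6ra, the interleukin 6 alpha chain (ENSMUSG00000027947.11, chr3:89864059-89913196, minus strand), was at 90.7, 107, 92.9 and 97.8 CPM in Control and 77.8 to 108 CPM, median 90.4, in BMAd-DTA. Of the BMAd-DTA libraries 4 lay below every Control library, 1 above and 2 among them, with a log2 fold change of -0.07 (SE 0.09, 95% interval -0.27 to 0.12, edgeR adjusted p 0.752). Il11ra1, the interleukin 11 alpha chain (ENSMUSG00000073889.10, chr4:41699989-41769474, plus strand), was at 18.4, 16.2, 17.02 and 17.2 CPM in Control and 15.5 to 19.9 CPM, median 19.02, in BMAd-DTA. BMAd-DTA libraries lay on both sides of the Control range, 4 above it and 1 below, with a log2 fold change of 0.09 (SE 0.09, 95% interval -0.10 to 0.28, edgeR adjusted p 0.674). Near-identical copies of Il11ra1 exist in the mouse genome, and pairs mapping to several places were not counted, so its level is uncertain. Of 4 such copies in the per-library files, Gm13306 had 7 counts over all libraries, and Il11ra2, Gm13305 and Gm21541 had 0.

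Among the ligands, Clcf1 (ENSMUSG00000040663.9, chr19:4214238-4223490, plus strand) was the most abundant. It had 17.6, 20.3, 23.9 and 22.5 CPM in Control. BMAd-DTA libraries had 20.6 CPM at the lowest, 29.7 at the median and 43.1 at the highest. All BMAd-DTA libraries but replicate 1, 6 of 7, lay above every Control library. The means were 21.04 ± 2.74 (SD, n = 4) and 30.5 ± 7.55 CPM (SD, n = 7), and the log2 fold change was 0.54 (SE 0.17, 95% interval 0.16 to 0.91). The adjusted p was 0.148 in edgeR and 0.0447 in DESeq2, and the exact permutation p was 0.0303, or 0.0833 without Control replicate 1 and 0.0750 without Control replicate 2. In GENCODE M21, 8.17% of the Clcf1 exon bases are shared with another coding gene on the same strand, AC109138.7, and reads there could be assigned to neither.

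Lymphocyte markers moved with Clcf1. Their sum was 377 to 755 CPM in Control and 671 to 1342 CPM in BMAd-DTA, 8 of 9 had higher fitted values (median log2 fold change 0.53), and none was at 0 in any library. None was called by edgeR or DESeq2, and 4 had an unadjusted p under 0.05 in edgeR, beside 16.4% of all genes. With group means removed, the correlation of Clcf1 with them was r = 0.78 over 11 libraries. BMAd-DTA replicate 2 had the highest sum and the highest Clcf1, and Control replicate 1 the lowest of both. The part of lymphocyte content in the Clcf1 difference was not tested. The genes most like Clcf1 were H2-DMb2 (r = 0.97), part of the class II antigen loading machinery, Ccm2 (r = 0.96) and Rasal3 (r = 0.95).

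Lif (ENSMUSG00000034394.14, chr11:4257557-4272514, plus strand) was measured from few reads, 19 to 92 counts per library. Control libraries had 1.49, 1.119, 4.20 and 2.07 CPM. BMAd-DTA libraries had 2.58 CPM at the lowest, 3.50 at the median and 5.42 at the highest. Control replicate 3 lay within the BMAd-DTA range, and the other Control libraries lay below all 7. The log2 fold change was 0.76 (SE 0.33, 95% interval 0.06 to 1.47), with an edgeR adjusted p of 0.263 and an exact permutation p of 0.0273. That p was 0.05 or above in 6 of the 11 tests that left out 1 library, at 0.0917 without Control replicate 1 or 2, 0.05 without Control replicate 4, 0.0524 without BMAd-DTA replicate 1 or 3 and 0.0667 without BMAd-DTA replicate 4. Without Control replicate 3 the log2 fold change was 1.27 with an edgeR adjusted p of 0.0462, and without Control replicate 2 it was 0.54. Control replicate 3 was the highest Control library for 6 of the 10 members (Il6, Lif, Osm, Clcf1, Il6st and Osmr) and had the largest sum of muscle markers, 1401 CPM.

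Osm (ENSMUSG00000058755.3, chr11:4236420-4241026, plus strand) lies 16530 bases before Lif on the same strand with no annotated gene between. It had 8.16, 8.36, 10.6 and 7.16 CPM in Control and 8.26 to 11.6 CPM, median 9.70, in BMAd-DTA. The ranges overlapped, with 3 of 7 BMAd-DTA libraries above all Control libraries, a log2 fold change of 0.21 (SE 0.13, 95% interval -0.08 to 0.50), an edgeR adjusted p of 0.460 and an exact permutation p of 0.124. Its nearest genes in pattern were Chil3 (r = 0.96), B430306N03Rik (r = 0.94) and Rab11fip3 (r = 0.93). With group means removed, Osm followed the neutrophil markers (r = 0.71, n = 11) and went against the megakaryocyte markers as strongly (r = -0.71). Neutrophil sums were 23874 to 28288 CPM in Control and 19998 to 29866 CPM in BMAd-DTA, and megakaryocyte sums were 1000 to 1836 against 839 to 1550 CPM.

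Il6 and Il11 were near the limit of detection. Il6 (ENSMUSG00000025746.11, chr5:30013114-30019981, plus strand) had 14, 6, 26 and 8 counts in Control and 2 to 23 counts in BMAd-DTA, or 0.77 ± 0.54 (SD, n = 4) and 0.68 ± 0.41 CPM (SD, n = 7). Its 95% interval ran from a log2 fold change of -1.35 to 1.03, so a change of 2-fold in either direction was within it. Il11 (ENSMUSG00000004371.15, chr7:4772373-4782859, minus strand) had 9, 2, 8 and 2 counts in Control and 2 to 15 counts in BMAd-DTA, did not pass the filter on low counts, and gave an exact permutation p of 0.703. No difference in either cytokine was detectable at this depth.

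**Figure D3:**
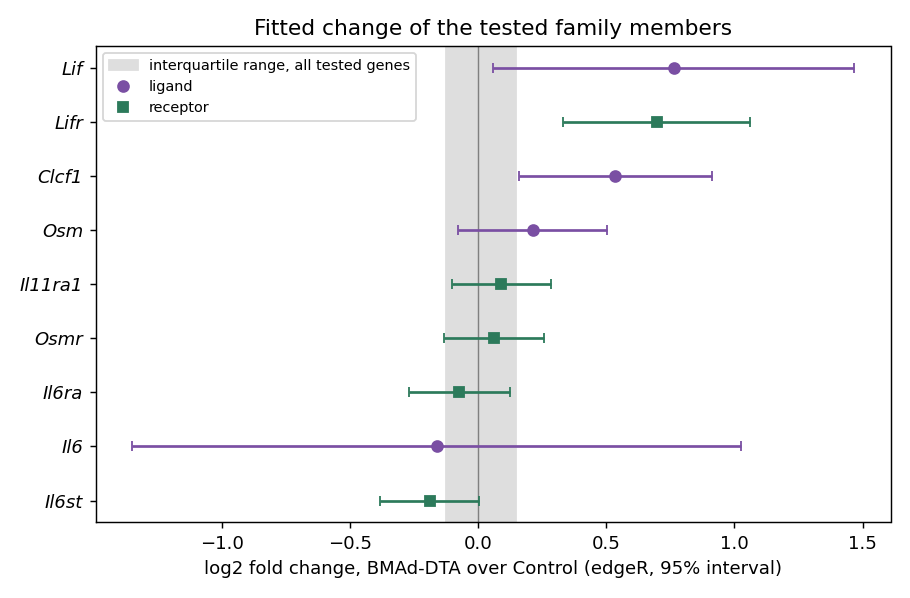
Fitted log2 fold change of BMAd-DTA over Control (edgeR, horizontal axis) with its 95% interval for the 9 members tested, ligands as circles and receptors as squares, and the interquartile range of all 16496 genes shaded. The intervals of Lifr, Clcf1 and Lif lie above 0, and that of Il6 is the widest, from -1.35 to 1.03.

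Levels were also divided by kilobases of exon, counting the exon bases of all annotated transcripts of a gene together. That length can exceed the length of the transcripts in use, so the order of genes depends on it. The order in Control was Il6st at 32.3 ± 1.86 CPM per kb, Il6ra at 11.2 ± 0.83, Lifr at 9.70 ± 1.78, Clcf1 at 5.53 ± 0.72, Il11ra1 at 3.84 ± 0.20, Osm at 3.78 ± 0.65, Osmr at 2.34 ± 0.30, Lif at 0.51 ± 0.32, Il6 at 0.32 ± 0.22 and Il11 at 0.14 ± 0.10 (SD, n = 4). By this measure receptor chains stood above their ligands, other than Osmr, which was lower than Osm. That exception rests on exon lengths of 12113 bases for Osmr and 2272 for Osm. Without the division by length Osmr was the higher in Control, at 28.3 against 8.58 CPM. Il11ra1 was above Osm in 2 of 4 Control libraries, so these neighbours did not differ beyond their spread, and Il6ra was above Lifr in 3 of 4. Without the division by length, the Control means had Lifr above Il6ra, at 104 and 97.0 CPM. In BMAd-DTA Lifr was above Il6ra per kb in 7 of 7 libraries, at 15.7 ± 3.67 and 10.7 ± 1.30 CPM per kb (SD, n = 7). Osm, at 4.37 ± 0.55, was above Il11ra1, at 4.09 ± 0.39, in 4 of 7.

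**Figure D4:**
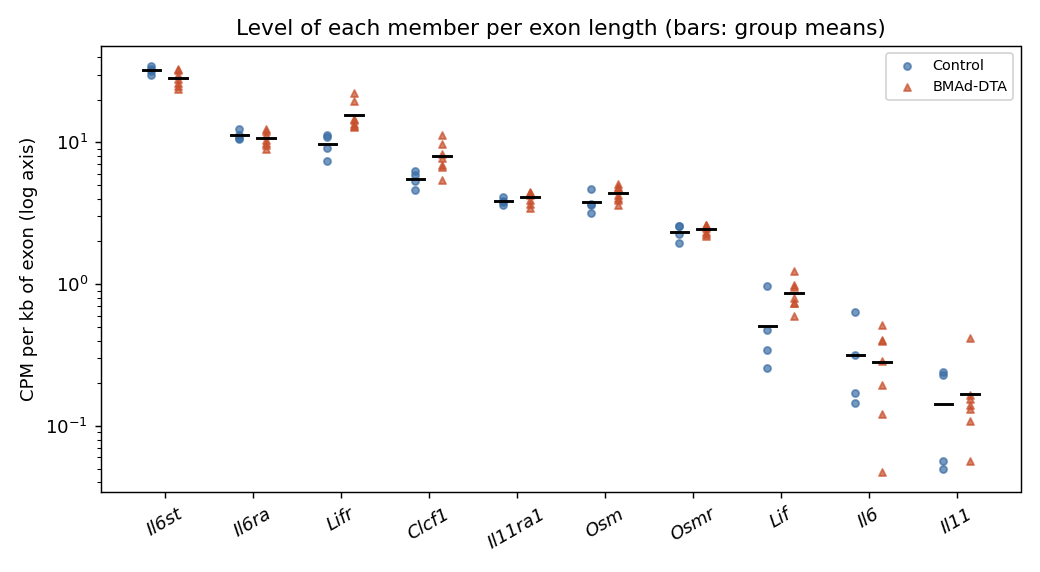
Level of each member per kilobase of exon (CPM per kb, log axis) in each library of Control (circles) and BMAd-DTA (triangles), with group means as bars and genes in the order of their Control means. Il6st is the highest at 32.3 and 28.3 CPM per kb, the Lifr mean lies below that of Il6ra in Control and above it in BMAd-DTA, and Il6 and Il11 spread most. Exon length counts the exon bases of all annotated transcripts of a gene together, and the order of genes depends on it.

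For the other members, likeness in pattern over the 11 libraries was highest for Itih5, Rem1 and C9orf72 with Il6st (r = 0.95, 0.94 and 0.94), Gm14325, Cd3d and Myo1e with Lif (r = 0.99, 0.93 and 0.93), and Acpp, Mib1 and Dock5 with Il6ra (r = 0.96, 0.92 and 0.92). For Il11ra1 they were Clec9a, Ahcyl2 and Cbfa2t3 (r = 0.96, 0.91 and 0.89), for Osmr they were Gcnt4, Rwdd1 and Fam83g (r = 0.90, 0.90 and 0.89), and for Il6, whose counts were sparse, they were Jade2, Foxd1 and Tsc22d3 (r = 0.97, 0.96 and 0.89). Each set is the top 3 of 14890 or 14891 genes, and such maxima are high by selection. Every member was also set against every marker list, and the r values printed for markers were picked from these. Among the others, Il11ra1 had r = -0.75 with the osteoblast and osteocyte markers.

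Genes around the family were read from fixed lists. Of 10 other gp130 ligands, partner proteins and receptors, 8 were in the table and 7 were tested, and none was called by edgeR, by DESeq2 or at an unadjusted p under 0.05. Ctf1, cardiotrophin 1, another Lifr ligand, had the lowest value at 0.81 ± 0.41 CPM (SD, n = 4) in Control and 0.42 ± 0.21 CPM (SD, n = 7) in BMAd-DTA, a log2 fold change of -0.93 (SE 0.47, edgeR adjusted p 0.344). Il27ra, the interleukin 27 receptor chain that pairs with gp130, had the highest fold change at 0.20, and Ebi3, a subunit of interleukin 27, the highest level at 44.4 CPM in Control and 44.1 CPM in BMAd-DTA. Cntfr, the alpha chain that Clcf1 binds, had 3.35 and 3.46 CPM, a log2 fold change of 0.05 (SE 0.29).

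Of 12 genes for JAK-STAT signalling, 10 had fitted values below 0, while 50.4% of all genes tested were above 0. None was called by edgeR or DESeq2. At an unadjusted p under 0.05 in edgeR there were 5 (all lower, among them Jak2, Ptpn11, Stat5a and Stat5b), beside 16.4% of all genes in either direction. The list's median log2 fold change was -0.10. Stat3, the main STAT of this family, had 229 ± 12.5 and 213 ± 7.55 CPM, and Jak1, a kinase bound to gp130, was nearly level at 379.5 and 379.8 CPM with a log2 fold change of 0.00. Jak2 was called by edgeR without Control replicate 3.

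Of 11 inhibitors and receptor-shedding proteases none was called by edgeR or DESeq2, 2 had an unadjusted p under 0.05 (Adam10 lower, Pias3 higher), near the 16.4% of all genes, and the median log2 fold change was 0.03. Socs2 had the highest fold change at 0.27 (SE 0.20), Adam10, a sheddase, the lowest at -0.24 (SE 0.09, edgeR adjusted p 0.215), and Ptpn6, a phosphatase, the highest level at 275 and 270.1 CPM. Socs3, the STAT3-induced inhibitor that binds gp130, had 31.1 ± 4.06 CPM (SD, n = 4) in Control and 32.5 ± 4.90 CPM (SD, n = 7) in BMAd-DTA.

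Of 20 STAT3-responsive genes tested, 10 had fitted values above 0 and 10 below, and the list's median log2 fold change was -0.01. None was called by edgeR, where 4 had an unadjusted p under 0.05 (Ccl2, Cdkn1a and Timp1 higher, Pim1 lower), and DESeq2 called Ccl2, Cdkn1a and Timp1. Over all genes the shares were 16.4% at that unadjusted p and 5.42% by DESeq2. Ccl2, a monocyte attractant also induced by many other signals, had the highest fold change, from 1.79 ± 0.44 CPM (SD, n = 4) to 4.86 ± 1.56 CPM (SD, n = 7), a log2 fold change of 1.44 (SE 0.27, adjusted p 0.0675 in edgeR and 7.63e-05 in DESeq2). Ccl2 and Cdkn1a, a cell cycle inhibitor, were the 2 genes of this list with all BMAd-DTA libraries above all Control libraries, beside 1.78% of all genes tested. Cdkn1a had a log2 fold change of 0.47 and Timp1, an inhibitor of matrix proteases, 1.07. Pim1 had the lowest value at -0.29 (SE 0.10, edgeR adjusted p 0.154), and Lcn2, a neutrophil granule protein, the highest level at 2536 and 2474 CPM.

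**Figure D5:**
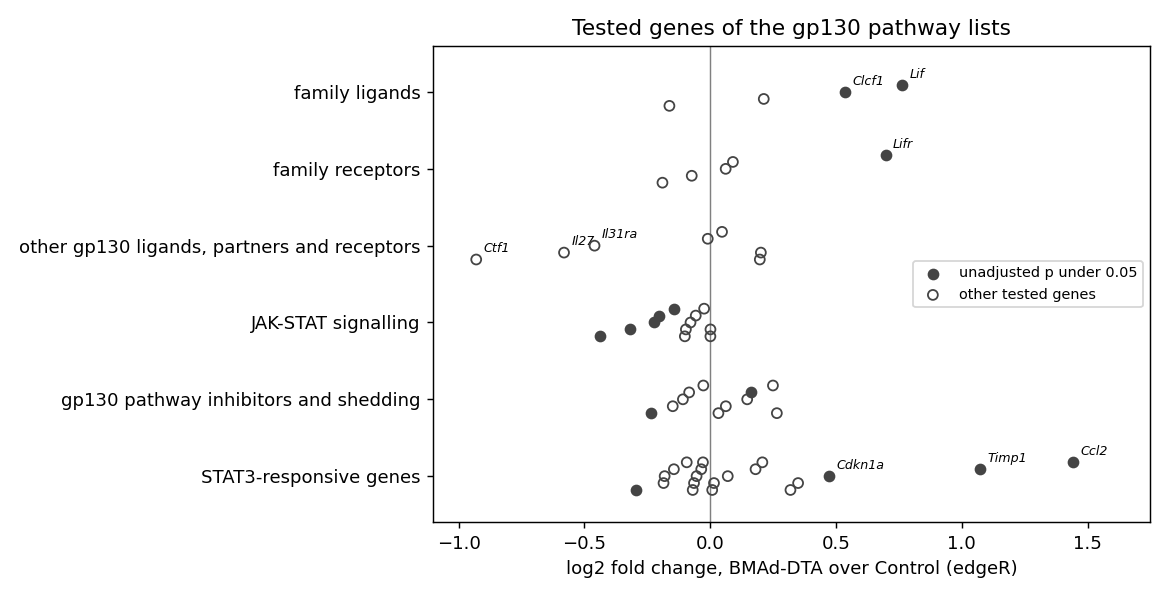
Fitted log2 fold change of BMAd-DTA over Control (edgeR, horizontal axis) for each tested gene of the family and of 4 pathway lists (rows), filled where the unadjusted p is under 0.05. Genes at 0.45 or more from 0 are named. The JAK-STAT genes lie mostly below 0 with a median of -0.10, and Ccl2 lies farthest to the right at 1.44.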

How the data were processed

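Per the labels and the study's methods, whole distal tibiae were powdered, RNA was made into stranded paired-end libraries, and reads were aligned to mm10 with STAR after FastQC 0.11.9; the submitters' notes also name DESeq2. The authors deposited whole-number counts per gene, unnormalized, for each library and merged over libraries. In every library the merged counts were those of the strand holding 95.9 to 96.3% of stranded gene counts. Pairs not assigned to a single gene, 26.3 to 32.3%, were not counted, and these include the multimapping pairs, 6.68 to 9.07%. Of the 22600 identifiers 22575 were matched to GENCODE M21 without version, which gave coordinates and exon lengths.

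Counts were filtered by group with edgeR's filterByExpr, TMM scaled and fitted with edgeR's quasi-likelihood model (edgeR 4.0.16, limma 3.58.1, R 4.3.3), Control against BMAd-DTA, with no covariate. SE is the log2 fold change over the root of F. DESeq2 1.42.0, limma-voom, other scalings, filters and strand settings, muscle and neutrophil covariates, and each library left out were alternatives. Exact permutation tests used log2(CPM + 0.5). The planned adjustment over the members alone is not given. Scripts were tested on simulated data. Nothing ties p-values to more than these 11 mice. The members and gene lists were chosen with earlier results of these data known. Named genes are all members, called genes of each list, those with its highest and lowest fold change and highest CPM, and the 3 genes most like each member (mean CPM of at least 1); others, such as Stat3, Socs3 and Cntfr, were added after values were seen. Ctf2, Il31, Junb, Vegfa, Klf1 and Ahsp were not analysed here, and single values of 2 listed genes are not reported here.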

Additional observations from a re-analysis of the deposited data

Results flagged for a closer look

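Il11 in BMAd-DTA replicate 5 stood far from the other 6 libraries of its group, at 0.861 CPM against 0.344 CPM in the next library. Without it the difference in Il11, by log2(CPM + 0.5), turned from 0.09 to -0.03. The sign turned as well without Control replicate 2 (-0.020) or Control replicate 4 (-0.031), neither of which was so marked. Of 20 group ranges examined this was the 1 so marked, and chance marks about 1 in 20.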

How the results depend on the processing

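The direction of Lifr, Clcf1, Lif, Osm, Il11ra1, Il6ra and Il6st held under all alternatives run, 11 other settings and 11 libraries left out. Lifr ran from 0.59 to 0.78 on the log2 scale, with adjusted p-values from 0.00271 (DESeq2) to 0.263, and its exact permutation p stayed between 0.00303 and 0.0333. Over all genes, the 13 calls became 845 with DESeq2, 20 with limma-voom, 20 with RLE scaling and 3 with the muscle score as covariate, and ran from 0 to 292 as single libraries were left out. They fell to 0 without Control replicate 1 or 2 or BMAd-DTA replicate 1 or 6, to 8 and 3 without BMAd-DTA replicates 3 and 4, and became 89 and 292 without Control replicates 4 and 3; the cause was not tested. Members called became 2 with DESeq2 (Lifr and Clcf1) and ran from 0 to 1 with libraries left out (Lif without Control replicate 3). Pathway genes called became 3 with DESeq2 (Ccl2, Cdkn1a and Timp1) and ran from 0 to 4, the 4 being Ccl2, Cdkn1a, Jak2 and Timp1 without Control replicate 3. The 3 members under 0.05 in the exact permutation test ranged from 1 to 4, with Lifr alone without Control replicate 1 or 2. Signs turned only with libraries left out: Il6 ranged from -0.40 to 0.41 in the edgeR fit and from -0.26 to 0.16 in the permutation difference, Osmr from -0.017 to 0.12 in both, and Il11 from -0.031 to 0.21. DESeq2 called more genes than edgeR on the same counts, so calls here depend on the tool. No paired analysis was possible because the labels give no replicate numbers shared by the groups. Counts under about 30 per library limit Il6 and Il11, and Lif in part.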
